A study of Mus musculus with 32 samples.

Results

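Damage-seq, which reads the positions of cisplatin adducts across the genome, was used here to compare kidney with liver, lung and spleen on the non-transcribed strand (NTS) of genes, the strand that RNA polymerase does not read. The members were the 2 kidney libraries, set against the 6 libraries of the other organs (2 each), out of 32 libraries in the whole series. For each of 25058 genes the NTS reads were scaled to the library's own total of reads on both strands of genes, the transcribed strand (TS) and the NTS, and 22030 genes with enough reads were tested. A value is therefore a share of the adducts that a library holds on genes, and it says nothing of how many adducts kidney DNA carried in all.

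All 8 libraries came from whole organs of female C57BL/6J mice, 6 or 7 months old, that had received 10 mg/kg cisplatin by intraperitoneal injection. The mice were injected at ZT1 (zeitgeber time, hours after lights on) and killed at ZT5, while another label gives 2 h after treatment. No Damage-seq library from untreated mice was analysed here, so the background of the assay was not subtracted in any organ. Each organ is a mixture of cell types, and a value is an average over them. Reads on both strands ranged from 1571167 to 6441367 per library and were highest in kidney (6441367 and 5731390) and lowest in spleen (1571167 and 2211070). In the matching RNA-seq, 17 of 17 organ markers were highest in the labelled organ, among them the tubule genes Umod and Slc34a1 in kidney and the surfactant gene Sftpc in lung.

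Cisplatin binds mainly neighbouring guanines, so that a GG dinucleotide is the usual site of its intrastrand adduct. Nucleotide excision repair removes these adducts along 2 routes: transcription-coupled repair, which acts on the TS of active genes, and global repair, which acts on both strands. Adducts on the NTS thus reflect formation together with global repair, without the transcription-coupled route. The kidney takes up cisplatin through transporters of the proximal tubule and is the organ in which the drug is known to be most toxic.

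The genes with the smallest p in each direction differed in how many GG sites they offer, which short stretches of some of them show. Each line below is a 200-base intronic stretch of the NTS, 5′ to 3′, from the GRCm38 (mm10) reference genome of RefSeq, with GG runs in capitals. The stretch is the one nearest the middle of the gene that holds the gene's average number of GG. Cic (chr7:25280182-25280381, plus strand, 20 GG) and Bahcc1 (chr11:120263622-120263821, plus strand, 19 GG) were among the genes highest in kidney. Csmd3 (chr15:48186200-48186399, minus strand, 7 GG) and Iqcm (chr8:75717399-75717598, plus strand, 9 GG) were among those lowest in kidney.
Cic: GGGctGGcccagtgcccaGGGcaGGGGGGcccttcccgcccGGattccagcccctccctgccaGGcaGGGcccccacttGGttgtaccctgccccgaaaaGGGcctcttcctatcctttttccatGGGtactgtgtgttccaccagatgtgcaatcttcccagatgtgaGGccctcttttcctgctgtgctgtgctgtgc
Bahcc1: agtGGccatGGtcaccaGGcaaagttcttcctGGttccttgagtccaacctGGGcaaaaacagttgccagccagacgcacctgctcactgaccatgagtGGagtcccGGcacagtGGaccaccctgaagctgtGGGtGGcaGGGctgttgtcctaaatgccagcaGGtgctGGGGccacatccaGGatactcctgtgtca
Csmd3: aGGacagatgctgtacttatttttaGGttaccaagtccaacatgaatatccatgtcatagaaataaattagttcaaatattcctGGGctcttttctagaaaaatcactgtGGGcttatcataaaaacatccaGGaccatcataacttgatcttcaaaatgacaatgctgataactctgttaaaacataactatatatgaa
Iqcm: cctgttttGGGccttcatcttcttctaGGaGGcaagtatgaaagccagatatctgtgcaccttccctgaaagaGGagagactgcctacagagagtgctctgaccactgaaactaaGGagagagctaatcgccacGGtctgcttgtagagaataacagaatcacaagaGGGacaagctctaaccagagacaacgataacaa
Over the whole gene, the NTS held 102 GG per 1000 bases in Cic and 94.3 in Bahcc1, but 37.1 in Csmd3 and 46.8 in Iqcm. The median over all tested genes was 60.5. Not every leading gene showed this contrast: the NTS of Asf1b, described below, held 848 GG in 14691 bases, which is below that median.

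Kidney differed from the other 3 organs on the NTS at many genes, and the differences followed gene composition. Genes rich in GC held relatively more NTS adducts in kidney, and long genes poor in GC held relatively fewer. With edgeR's quasi-likelihood test and Benjamini-Hochberg adjustment, 3962 of 22030 genes (18.0%) were higher in kidney than in the mean of the 3 organs and 1619 (7.35%) were lower, at an adjusted p of 0.05. The higher genes had a median fold of 1.77 and the lower genes a median fold of 0.719. In 4224 genes (19.2%) both kidney libraries lay above all 6 others, and in 2271 genes (10.3%) both lay below. The same contrast drawn for another organ against its 3 counterparts called 48 genes higher (0.218%) and 46 lower (0.209%) in liver, 1 lower in lung (0.00454%), and 9 higher (0.0409%) and 4 lower (0.0182%) in spleen. At an unadjusted p under 0.05 in the same edgeR test there were 7904 genes of 22030 in kidney, and 2742, 1992 and 1971 in liver, lung and spleen. The organs are not compared on equal terms here. The mean against which liver, lung or spleen was set included kidney, and the liver and spleen libraries held fewer reads than those of kidney and lung. Against single organs, kidney was higher at 2442 genes (11.1%) and lower at 1418 (6.44%) relative to liver, at 2415 (11.0%) and 984 (4.47%) relative to lung, and at 1688 (7.66%) and 642 (2.91%) relative to spleen. The number past the threshold in the same direction against each of the 3 organs was 975 higher (4.43%) and 394 lower (1.79%).

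The split between higher and lower genes depended on the scale and the test. Of all calls, 71.0% were higher on the TS+NTS scale and 56.7% with TMM factors (3070 higher, 2342 lower). DESeq2, which changes both the scale and the test, gave 49.6% (1407 higher, 1432 lower). Without kidney replicate 1, the counts fell to 1537 higher and 483 lower. The labels do not name the animals behind the 2 libraries of an organ, and the p-values measure only the spread between these libraries.

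The composition of the called genes differed between the directions. The higher genes had a median GC content of 51.0% and a median length of 15.9 kb, and the lower genes 39.7% and 138 kb, against 45.5% and 18.2 kb over all tested genes. When genes were ranked by GC content into quintiles, the median log2 difference of kidney rose from -0.32 in the poorest to -0.10, 0.08, 0.35 and 0.67 in the richest. In the GC-richest quintile 2040 of 4403 genes were called higher and 2 lower, while in the poorest 35 were called higher and 1107 lower. Across genes the Spearman coefficient between the NTS difference and gene GC content was 0.65 (Pearson 0.61, 22013 genes), a description over genes that share the same 8 libraries.

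Both kidney libraries showed this relation. The GC-richest quintile held 13.2% and 12.2% of the NTS reads in kidney. Liver held 6.92% and 8.63%, lung 7.99% and 8.80%, and spleen 7.67% and 9.35%. The kidney values did not overlap the others, with a mean of 12.7% ± 0.748 (SD, n = 2) against 8.23% ± 0.874 (SD, n = 6). The GC-poorest quintile held 20.98% and 24.3% in kidney against 26.7% to 31.5% elsewhere. In a two-sided exact permutation test over the 28 ways to choose 2 of 8 libraries, p was 0.0357 for each value, the smallest this test allows (0.0446 adjusted over 5 values compared per library). The test takes libraries as separate units although 2 came from each organ, so its p does not measure the spread between organs. The other libraries were not alike either: liver replicate 1 ran furthest in the opposite direction, and its share in the richest quintile was the lowest of the 8. Because GC content of a gene and its number of GG sites go together, they could not be told apart here.

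**Figure D1:**
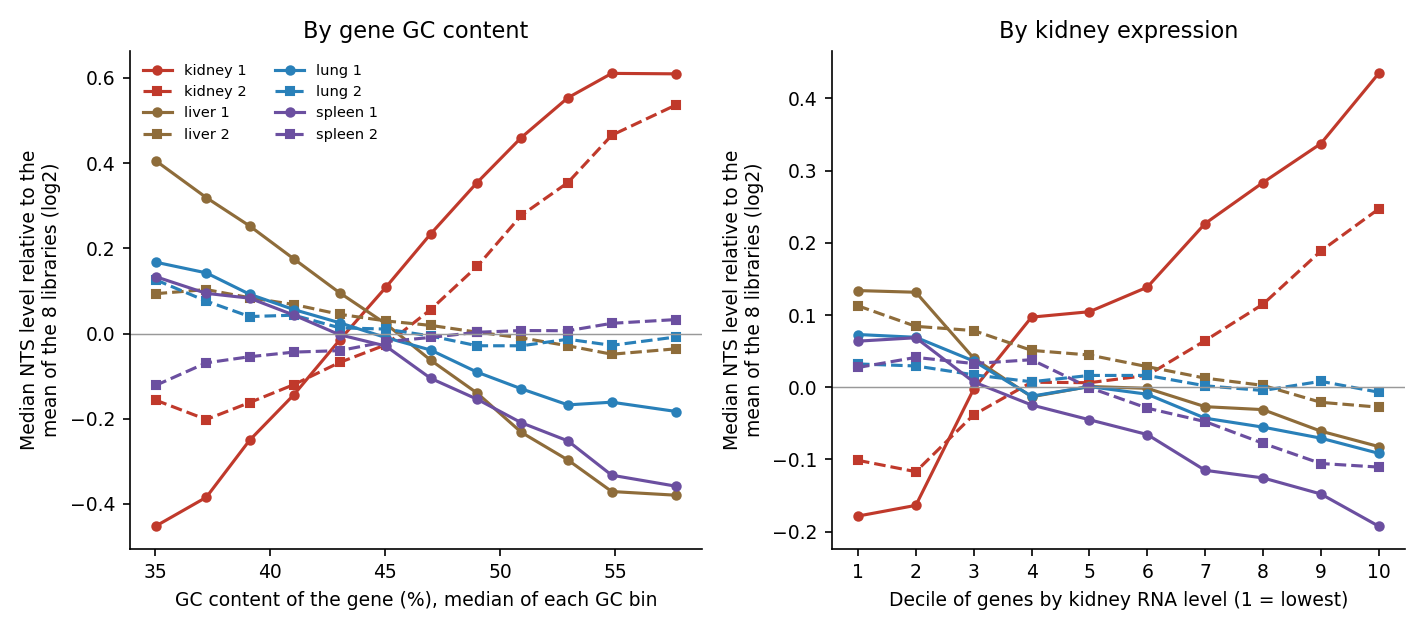
NTS level of each library relative to the mean of the 8 (log2, median over genes), by gene GC content in 12 bins (left) and by decile of kidney RNA level (right), with organs in colours and replicates as solid and dashed lines. Both kidney libraries climb over most of both plots, from -0.45 and -0.16 in the lowest GC bin to 0.61 and 0.54 in the highest, while the other 6 libraries stay flat or fall relative to that mean, except for spleen replicate 2, which rises slightly with GC. The mean includes kidney, so that a rise in kidney lowers the relative level of the others.

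To see what remained beside composition, the trend of each library over gene GC content was fitted by loess and removed. Kidney was then higher at 1205 of 22013 genes (5.47%) and lower at 856 (3.89%). Of the 3962 higher genes 1007 (25.4%) were again called higher, and of the 1619 lower genes 385 (23.8%) were again called lower. Without kidney replicate 2 the numbers after removal were 559 higher and 869 lower, and without kidney replicate 1 they were 641 and 221. Removing the trend takes away any difference between organs that goes with GC, whatever its source, and the source was not tested.

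The 12 genes with the smallest p among those higher in kidney were CT010467.1, Cic, Bahcc1, Pxn, Sbno2, Tmem189, Shb, Ahdc1, D030028A08Rik, Cxxc5, Ubtf and Nfic. Their differences ranged from 1.06 to 1.67 log2 units and their GC content from 50.4% to 59.4%. They were chosen as called genes whose kidney libraries lay beyond the other 6, so that the lack of overlap is no finding of its own. All 12 were also higher on the TS, and all 12 stayed past the threshold after the GC trend was removed, with differences of 0.40 to 0.94. On the TS+NTS scale all 12 also passed without kidney replicate 1 and without kidney replicate 2. In RNA, 3 of the 12 were called higher in kidney and none lower.

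Cic, which encodes a transcriptional repressor acting below receptor tyrosine kinases, lies at chr7:25267704-25294159. Its NTS held 59.0 and 96.8 RPM in kidney, where RPM is the number of reads per 1000000 TS+NTS reads of the library. Liver held 21.5 and 32.4 RPM, lung 32.1 and 33.5, and spleen 26.7 and 23.1. Both kidney libraries lay well above the other 6, and the log2 difference was 1.49 ± 0.14 (SE, adjusted p = 1.9e-13 in edgeR). Its RNA was at 6.94 RPKM (RPM per kilobase of exon, over RNA reads) in kidney and between 3.42 and 12.4 in the other organs.

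Bahcc1, which encodes a chromatin protein with a BAH domain, lies at chr11:120232947-120292296. It held 92.7 and 106 NTS RPM in kidney against 33.4 to 49.2 in the other 6 libraries, a log2 difference of 1.26 ± 0.12 (SE, adjusted p = 1.9e-13 in edgeR). Kidney RNA of Bahcc1 was low, at 0.565 RPKM, so that high RNA did not accompany every high NTS value.

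Ubtf, which encodes an upstream activator of ribosomal RNA transcription, lies at chr11:102304560-102319742. It held 37.4 and 40.1 NTS RPM in kidney, and the other libraries ranged from 10.8 to 16.0. Its log2 difference of 1.67 ± 0.17 (SE, adjusted p = 1.9e-12 in edgeR) was the largest of the 12. Tmem189, a gene of plasmalogen synthesis, held 73.3 and 80.8 against 27.4 to 35.7, and its RNA stood at 44.5 RPKM in kidney against 3.19 to 17.4 in the other organs. It overlaps another annotated gene, so that some reads counted for it may belong to its neighbour. The same limit holds for other genes named here, among them D030028A08Rik, Pik3r2, Slc5a10, Lrrc8a, Lrrc8d, Slc31a1, Ercc1, Ercc2 and Junb.

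Pxn, which encodes the focal adhesion protein paxillin, held 93.0 and 86.5 NTS RPM in kidney and 31.3 to 43.4 elsewhere. Nfic, a nuclear factor I gene, held 99.5 and 113 against 38.8 to 58.8. Shb, which encodes a signalling adaptor and is the longest of the 12 at 109 kb, held 157 and 146 against 58.6 to 90.0. None of the 3 overlapped between kidney and the other organs.

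CT010467.1 had the smallest p of all genes, with 244 and 422 NTS RPM in kidney and 86.2 to 209 in the other libraries. It is annotated as a ribosomal RNA gene (chr17:39846353-39848827). Ribosomal RNA genes exist in many copies, and reads of the other copies may be counted here, so the value is uncertain. After the GC trend was removed its difference was 0.44, and it turned to -0.06 when kidney replicate 2 was also left out.

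Among genes with a mean of at least 30 NTS reads, the largest differences were those of Asf1b, Pik3r2, Flad1, Flt3l and Pitpnm1, from 1.78 to 1.96 log2 units. Asf1b, which encodes a histone chaperone of dividing cells, lies at chr8:83955507-83970197. It held 22.7 and 33.8 NTS RPM in kidney. The liver values were 10.2 and 11.1, those of lung 8.63 and 9.25, and those of spleen 2.55 and 4.97. The kidney was highest and the spleen lowest, without overlap. The log2 difference was 1.96 ± 0.21 (SE, adjusted p = 1.0e-11 in edgeR), and at a GC content of 44.8% it changed little, to 1.94, when the GC trend was removed. Its RNA was low in kidney and liver (0.348 and 0.275 RPKM) and highest in spleen (13.1), where its NTS level was lowest.

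On the TS+NTS scale most genes in the stretch around Asf1b were higher in kidney. Within 150 kb on either side, 11 of the 12 tested genes were called higher, against 18.0% of all genes. After the GC trend was removed 4 remained called, against 5.47% of all genes. Both counts include Asf1b itself, which was picked for its large difference. After that removal Adgrl1 (-0.22) and Rln3 (-0.42) lay below 0, neither of them called. Prkaca, a catalytic subunit of protein kinase A and a direct neighbour, held 39.3 and 51.1 NTS RPM in kidney against 14.6 to 19.7 elsewhere, and its log2 difference of 1.40 became 1.01 after the GC trend was removed. This stretch was looked at after the value of Asf1b was seen.

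Flad1, which encodes FAD synthase, held 18.5 and 25.1 NTS RPM in kidney against 3.28 to 8.91 in the other libraries. Flt3l, a cytokine gene for dendritic cells and early blood progenitors, held 16.0 and 14.3 against 2.55 to 7.18, and its RNA was called lower in kidney. Pik3r2, a regulatory subunit of phosphoinositide 3-kinase, held 17.7 and 19.2 against 2.97 to 7.60. Each of the 5 was called after removal of the GC trend as well.

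**Figure D2:**
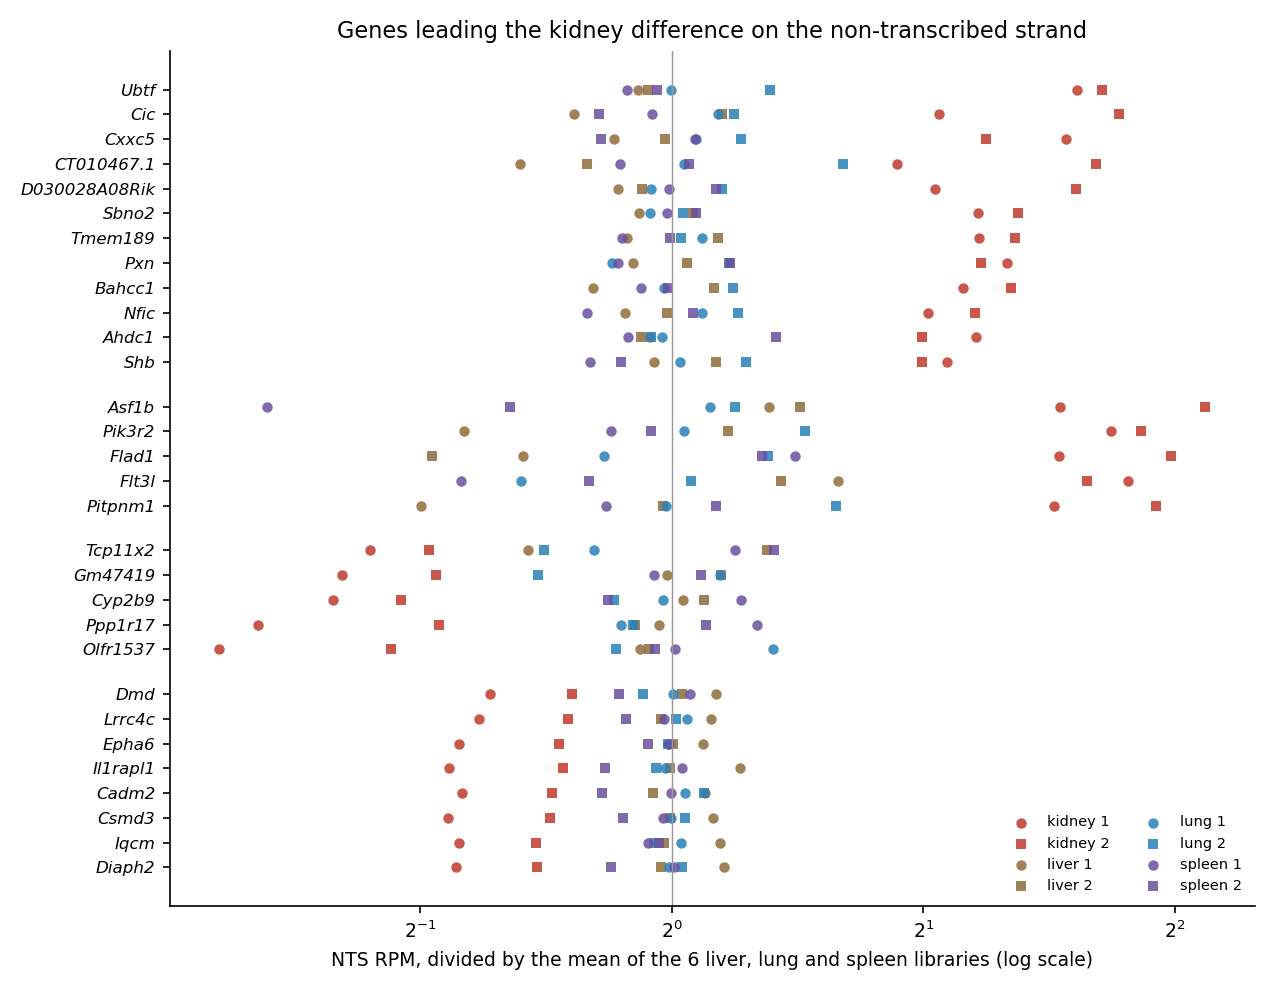
NTS RPM of each library, divided by the mean of the 6 liver, lung and spleen libraries (logarithmic axis), for the genes leading the comparison: 12 higher by p, 5 higher by size, 5 lower by size and 8 lower by p. In every gene both kidney libraries (red) lie outside the range of the other 6, as the choice of these genes required.

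The 8 genes lower in kidney with the smallest p were Csmd3, Iqcm, Diaph2, Epha6, Il1rapl1, Cadm2, Dmd and Lrrc4c. They were long, between 536 and 2257 kb, and poor in GC, between 35.2% and 38.4%. Their differences were smaller than those of the higher genes, from -0.69 to -0.55 log2 units, and rested on many reads. All 8 were also lower on the TS. None reached 1 RPKM of RNA in kidney. Only Iqcm and Epha6 remained past the threshold after the GC trend was removed.

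Csmd3, a very large gene for a membrane protein of neurons, lies at chr15:47580637-48792063. It held 227 and 300 NTS RPM in kidney, while liver held 471 and 419, lung 419 and 436, and spleen 411 and 368. Its log2 difference was -0.67 ± 0.09 (SE, adjusted p = 2.6e-08 in edgeR) and became -0.18 after the GC trend was removed (adjusted p = 0.052). Iqcm lies at chr8:75448694-75984503 and held 121 and 150 against 204 to 249, with a difference of -0.69 that became -0.35 (adjusted p = 0.00031). Dmd, the dystrophin gene, held 474 and 594 against 677 to 884. In each of the 3 kidney replicate 1 was lower than kidney replicate 2, and neither overlapped the other organs.

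The 5 lower genes of largest size among those with at least 30 reads were Olfr1537, Ppp1r17, Cyp2b9, Gm47419 and Tcp11x2, and each remained called after the GC trend was removed. Without kidney replicate 1, 3 of the 5 were called. Cyp2b9, a cytochrome P450 gene of the liver, held 8.69 and 10.5 NTS RPM in kidney against 18.5 to 26.7 elsewhere, with a log2 difference of -1.19 ± 0.20 (SE, adjusted p = 5.3e-06 in edgeR). Its level in lung (21.6 and 18.8) and spleen (26.7 and 18.5) was close to that in liver (22.8 and 24.2), while its RNA was at 254 RPKM in liver and below 1 in the other organs. On the TS the difference of Cyp2b9 was 0.13 (adjusted p = 0.70), and the difference between the strands passed the test (adjusted p = 0.00089). Ppp1r17 held 4.35 and 7.15 against 11.8 to 17.2, and Olfr1537, an olfactory receptor gene, 3.26 and 5.23 against 9.75 to 15.0. Cyp2b9 and Olfr1537 belong to families with near-identical copies, and reads fitting more than 1 copy may be missing from the counts.

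Kidney genes themselves had a larger share called higher than all genes on the TS+NTS scale and a smaller one once the GC trend was removed, a description with no test. Of 38 genes of the kidney tubule, all of them called higher in kidney RNA, 13 were higher on the NTS (34.2%, against 18.0% of all genes) and none lower, with a median difference of 0.28 against 0.10 over all genes. After the GC trend was removed 1 was higher (Dpep1, 2.63% against 5.47% of all genes) and 1 lower (Scnn1b), and the median was 0.06 against 0.01. Slc5a10, a sodium-dependent sugar transporter, held 50.9 and 45.0 NTS RPM in kidney against 19.7 to 31.7 elsewhere, a log2 difference of 0.93 that became 0.31 (adjusted p = 0.12). Slc34a3, a phosphate transporter, held 12.9 and 15.5 against 3.82 to 7.69. Umod, which encodes the most abundant protein of urine, held 9.78 and 7.85 against 6.56 to 10.9, with overlapping groups and a difference of 0.15 (adjusted p = 0.72), although its kidney RNA was at 1527 RPKM. Kap, an androgen-regulated gene with the highest kidney RNA of all, had only 8.12 NTS reads per library on average, and its difference of -0.73 did not pass (adjusted p = 0.34).

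Of 18 transcription factors of the kidney, 4 were higher (22.2%) and 1 lower (5.56%), near the 18.0% and 7.35% of all genes, with a median of 0.21 that turned to -0.04 when the GC trend was removed. Osr1, a factor of the early kidney, was the lower one, with 5.90 and 6.46 NTS RPM in kidney against 8.42 to 12.2 elsewhere. Of 10 genes of podocytes, the filtering cells of the glomerulus, Synpo was higher, Magi2 was lower and the median was -0.06. Each of these shares was 10%, against 18.0% and 7.35% of all genes. With the trend over GG sites per kilobase removed, the difference of Synpo went from 0.52 to -0.0015.

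Genes for the transport and binding of platinum were of interest because the kidney concentrates the drug. Of 20 genes, 4 were higher (Lrrc8a, Ggt1, Atox1 and Lrrc8d), 1 was lower (Abcb1a), and the median was 0.29. These shares of 20% and 5% were near the 18.0% and 7.35% of all genes. After the GC trend was removed Lrrc8a, Atox1 and Slc31a1 were higher (15%, against 5.47% of all genes), none was lower and the median was 0.13. Lrrc8a, a subunit of a volume-regulated anion channel that also passes cisplatin, held 35.2 and 29.1 NTS RPM in kidney against 10.4 to 17.8 elsewhere, a log2 difference of 1.16 ± 0.17 (SE, adjusted p = 2.5e-07 in edgeR). Lrrc8d, another subunit of that channel, held 121 and 94.9 against 79.0 to 90.4. Atox1, a copper chaperone that also binds platinum, held 16.6 and 13.1 against 4.46 to 11.1. Ggt1, an enzyme of glutathione metabolism at the tubule surface, held 35.7 and 21.3 against 14.0 to 18.1. Abcb1a, a drug efflux pump, held 29.7 and 27.6 against 33.2 to 42.5.

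The transporters most tied to renal cisplatin did not pass. Slc22a2, which encodes the organic cation transporter OCT2, held 23.8 and 19.7 in kidney against 15.8 to 25.4 elsewhere, with a difference of 0.17 ± 0.18 (SE), at 80.4 RPKM of kidney RNA against 0.159 or less in the other organs. Slc31a1, the copper importer CTR1, held 21.3 and 20.4 against 9.55 to 18.1 (0.43, adjusted p = 0.082 in edgeR, and 0.55, adjusted p = 0.028, after removal of the GC trend). Slc47a1, an exporter of organic cations, was at 0.37 (adjusted p = 0.074). Differences between -0.17 and 1.23 were found for Slc47a2 (0.12), Slc22a3 (-0.07), Slc31a2 (0.21), Atp7a (-0.17), Atp7b (-0.04), Abcc2 (-0.07), Abcb1b (0.20), Gclc (0.40), Gstp1 (0.77), Mt1 (1.23) and Mt2 (0.67). The metallothionein genes Mt1 and Mt2 had a mean of 3.75 and 4.38 NTS reads per library, a depth at which such differences could not be detected.

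Genes of the early response to damage had the highest median of the 17 groups. Of 17 genes in the files, 9 were higher (52.9%, against 18.0% of all genes) and none lower, and the median was 0.98 (0.88 with TMM factors). After removal of the GC trend 5 were higher (Junb, Atf3, Fosl1, Mdm2 and Ccng1), or 29.4% against 5.47% of all genes. The median was then 0.46, against 0.01 over all genes. Atf3, a stress-induced transcription factor, held 53.4 and 48.5 NTS RPM in kidney and at most 38.5 elsewhere, a log2 difference of 0.68 ± 0.14 (SE, adjusted p = 0.00011 in edgeR). Its RNA was at 89.5 RPKM in kidney against 3.58 to 12.6. Junb, an immediate early gene, held 5.90 and 7.85 against 0.248 to 3.97, on a mean of 15.1 reads per library. Gadd45b, a stress sensor gene, held 6.68 and 5.41 against 0.636 to 4.13. Bbc3, a p53 target that promotes cell death, held 17.9 and 16.2 against 4.95 to 12.3. In RNA, 13 of the 17 were called higher in kidney. Bbc3 was called lower there, at 2.16 RPKM against 4.07 to 11.4, and Gadd45b was not called, at 14.9 against 5.06 to 70.8. Neither Bbc3 nor Gadd45b was called on the NTS after removal of the GC trend. Their median GC content was 53.0%.

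Of 33 genes of excision repair, 8 were higher (24.2%, against 18.0% of all genes), 1 was lower (Mnat1) and the median was 0.29. After the GC trend was removed 1 was higher (3.03%, against 5.47% of all genes), none was lower and the median was 0.25. Ercc1, part of the nuclease that cuts on the 5′ side of the adduct, held 19.3 and 18.1 NTS RPM in kidney against 5.45 to 14.2, and like Ercc2 and Xrcc1 it was no longer called after that removal. Ercc2, a helicase of TFIIH, held 23.6 and 22.3 against 9.02 to 16.7, and Xrcc1, a scaffold of strand-break repair, 30.4 and 26.3 against 12.1 to 21.7. No member was called higher in kidney RNA by edgeR.

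Of 80 tested genes for cytosolic ribosomal proteins 17 were higher (21.25%, near the 18.0% of all genes) and none lower, with a median of 0.61. With the GC trend removed 2 were higher (2.5%, against 5.47% of all genes) and the median was 0.37. Rpl3 held 12.0 and 10.6 NTS RPM in kidney against 2.55 to 5.78. Ribosomal protein genes have many processed copies, and the authors dropped reads of low mapping quality, so that reads fitting several copies may be missing. Of 20 genes of mitochondrial and peroxisomal metabolism, 16 of them called higher in kidney RNA, 20% were higher on the NTS, near the share of all genes, and the median was 0.22. Cpt1a, Ppara and Acadl were among the higher, with and without the GC trend, and Gk was lower on the TS+NTS scale. With the GC trend removed 4 of the 20 were higher (20%, against 5.47% of all genes). None was then lower, and the median was 0.17.

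Hox genes, which give cells their position along the body axis, had 13 higher of 30 (43.3%, against 18.0% of all genes) and none lower, with a median of 0.72. With the GC trend removed 3 were higher (10%, against 5.47%) and the median was 0.22. Hoxa3 held 67.1 and 76.6 NTS RPM in kidney against 30.03 to 37.0, a log2 difference of 1.13 ± 0.13 (SE, adjusted p = 9.1e-11 in edgeR) that became 0.79. Its RNA was low in every organ, at 0.665 RPKM in kidney, 1.00 in lung, 0.314 in spleen and 0.0685 in liver. On the TS the difference of Hoxa3 was 0.51, and the difference between the strands passed the test (adjusted p = 0.011). Hoxa3 overlaps another annotated gene, so that NTS reads of one may be TS reads of the other. Hoxa9 held 17.7 and 14.7 against 5.25 to 8.14. Of 352 zinc finger genes of the Zfp series 48 were higher (13.6%) and 14 lower (3.98%), both below the shares of all genes, with a median of 0.02 that was -0.07 with TMM factors.

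Genes that mark the other organs had medians near 0 on the TS+NTS scale and below 0 after the GC trend was removed. Over all genes 18.0% were higher and 7.35% lower on the TS+NTS scale, and 5.47% and 3.89% after that removal. Of 32 hepatocyte genes 3 were lower (9.38%: Cps1, Cyp2c29 and Cyp3a11) and none higher, with a median of -0.04. After removal of the trend none was called and the median was -0.20. Of 18 genes of lung epithelium Foxj1 and Ager were higher (11.1%), Lamp3 was lower (5.56%) and the median was 0.02 (-0.07 with TMM factors). With the trend removed none was higher, 2 were lower (11.1%) and the median was -0.23. Lamp3, a gene of alveolar type II cells, held 12.7 and 15.0 NTS RPM in kidney, 29.1 and 23.3 in lung, 32.2 and 25.0 in liver, and 37.6 and 19.4 in spleen, so that lung was not apart from liver and spleen. Of 26 lymphocyte genes 5 were higher (19.2%) and 6 lower (23.1%), with a median of 0.00 (-0.08 with TMM factors). None was higher, 3 were lower (11.5%) and the median was -0.13 with the trend removed. On the TS+NTS scale Cd79b, with a GC content of 54.1%, was among the higher, and the long genes Arhgap15, Ebf1, Themis and Bank1 among the lower.

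Long neuronal genes and sensory receptor genes had the lowest medians on the TS+NTS scale. Of 34 long neuronal genes 33 were lower (97.1%, against 7.35% of all genes) and none higher, with a median of -0.49. After removal of the GC trend 17 were lower (50%, against 3.89% of all genes) and the median was -0.17. The median length of this list was 1137 kb. Of the 222 tested genes above 500 kb, whatever their function, 86.5% were lower, and 43.2% after removal of the GC trend. The shares in the list were thus near those of long genes in general. Lsamp, an adhesion gene of neurons, held 522 and 661 NTS RPM in kidney against 734 to 960 elsewhere. Of 593 tested olfactory receptor genes 32 were lower (5.40%, against 7.35% of all genes) and none higher, with a median of -0.43 that moved to -0.08 (4 lower). Of 118 vomeronasal receptor genes 17 were lower (14.4%) and none higher, with a median of -0.46 that moved to -0.10 (none lower). The 23 tested genes of the clustered protocadherins had a median of -0.11, which became -0.35 after removal of the GC trend, the lowest of the 17 groups on that scale. None was called on either scale, and on the TS+NTS scale Pcdha11 came closest to the threshold (-0.31, adjusted p = 0.058 in edgeR).

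**Figure D3:**
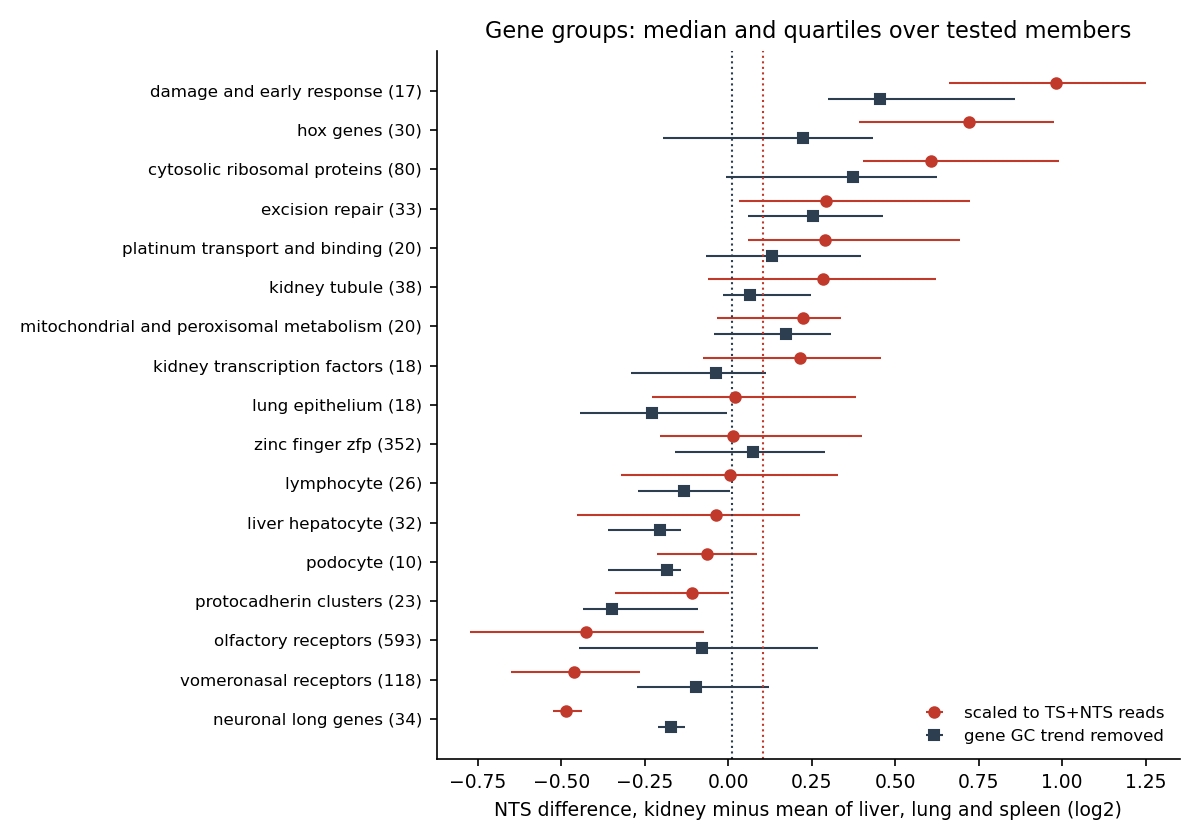
Median (points) and quartiles (bars) of the kidney NTS difference (log2) over the tested members of each gene group, with the number of members in brackets, on the TS+NTS scale (red circles) and after removal of the gene GC trend (dark squares), and dotted lines at the median of all genes. The groups spread from -0.49 in long neuronal genes to 0.98 in early response genes on the first scale and draw together on the second, where the early response genes stay highest at 0.46.

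The relation to kidney expression was then described. In bulk RNA, fewer cells of a type and less RNA per cell cannot be told apart. Ranked by kidney RNA of the cisplatin-treated mice into deciles, genes held relatively more NTS adducts in kidney the more RNA they had. The median log2 difference was -0.24 in the lowest decile, 0.07 in the fifth and 0.50 in the highest, a step of 0.74 from end to end. The quartiles were wide: -0.52 to 0.10 in the lowest decile and 0.14 to 0.85 in the highest. In the highest decile 769 of 2202 genes (34.9%) were called higher and 23 lower, while in the lowest 38 (1.73%) were called higher and 249 lower.

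After removal of the GC trend the step was 0.46, from -0.19 in the lowest decile to 0.27 in the highest. Of the highest decile 304 genes (13.8%) were then called higher and 4 lower, and of the lowest decile 5 higher and 129 lower. Within quintiles of GC content the step from the lowest to the highest quintile of expression was 0.41, 0.42, 0.41, 0.55 and 0.56, so that it was present at every GC level. The median GC content of the deciles ran from 43.1% to 47.2%.

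**Figure D4:**
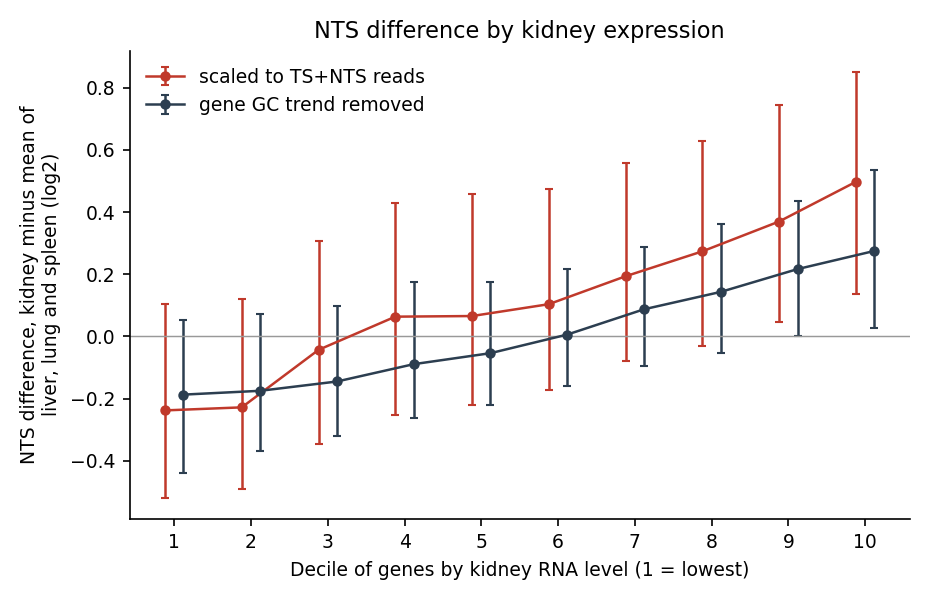
Kidney NTS difference (log2) by decile of kidney RNA level, as median (points) and quartiles (bars) over about 2201 genes each, on the TS+NTS scale (red) and after removal of the gene GC trend (dark). Both lines rise across the deciles, by 0.74 and 0.46 from end to end, and the quartiles of neighbouring deciles overlap.

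Each library was then set against the mean of the 8 libraries gene by gene, so that values above 0 in some libraries go with values below 0 in others, and 0 is not a level without relation to RNA. On this relative scale, the median of the highest decile minus that of the lowest was 0.61 and 0.35 for kidney. Liver gave -0.22 and -0.14, lung -0.16 and -0.04, and spleen -0.26 and -0.14. Both kidney libraries lay above the other 6, and the two-sided exact permutation p for kidney against the others was 0.0357, again the smallest possible (0.0446 adjusted). Libraries of the same organ were again taken as separate units, and the genes were ranked by kidney RNA alone. After removal of the GC trend the values were 0.38 and 0.20 in kidney and -0.17 to -0.01 in the other 6, with the same p.

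**Figure D5:**
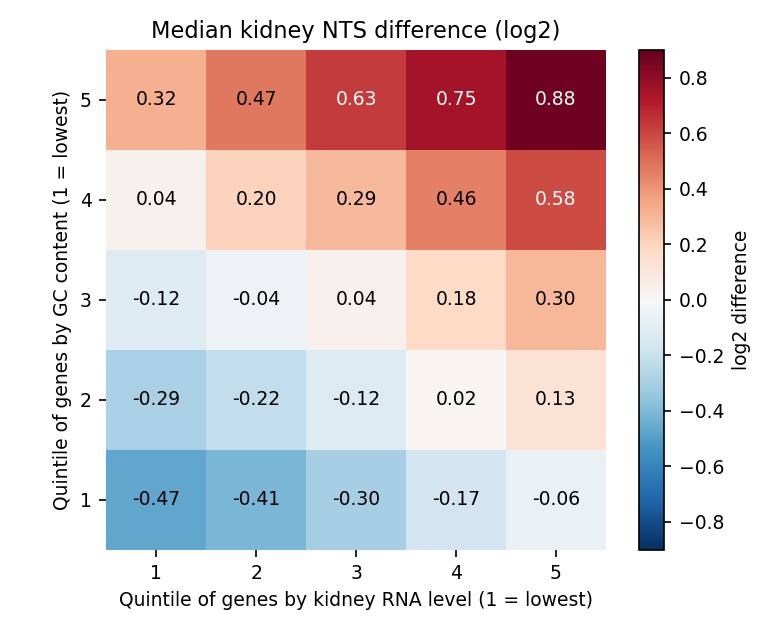
Median kidney NTS difference (log2) in 25 cells of genes, by quintile of gene GC content (vertical) and of kidney RNA level (horizontal). The value rises along both directions, from -0.47 in the cell lowest in both to 0.88 in the cell highest in both.

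The NTS difference went with RNA level in every organ more than with the surplus of RNA in kidney. The Spearman coefficient of the NTS difference was 0.40 with the kidney RNA level, and 0.36 with the RNA level of liver, of lung and of spleen alike, but 0.14 with the difference in RNA between kidney and the mean of the other 3 (22013 genes that share the same libraries). Of 8085 genes at 1 RPKM or more in all 4 organs 2462 (30.5%) were called higher, and the median difference was 0.32 (0.19 after removal of the GC trend). Of 475 genes that reached 1 RPKM in kidney only 88 (18.5%) were called higher, close to the 18.0% of all genes, and the median was 0.14 (-0.03 after removal of the GC trend). Of 186 genes that reached it in the other 3 organs but not in kidney 14 (7.53%) were called higher and the median was -0.01. Of 7844 genes below 1 RPKM in all 4 organs 485 (6.18%) were called higher and 926 (11.8%) lower.

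Genes were also grouped by RNA call. Kidney RNA was tested by edgeR against a log2 difference of 0.4, and among the NTS-tested genes with an RNA test 22.5% were higher in kidney and 16.6% lower. Of 3842 genes higher in kidney RNA 1031 (26.8%) were higher on the NTS and 273 (7.11%) lower. Of 2830 genes lower in kidney RNA 443 (15.7%) were higher on the NTS and 222 (7.84%) lower. The 10418 genes with no RNA call lay between on this scale, with 2339 (22.5%) higher on the NTS. Once the GC trend was removed they did not: 7.80% of them were higher on the NTS (median 0.09), against 7.42% of the genes higher in kidney RNA (median 0.07) and 2.76% of those lower (median -0.07). The 4923 genes with too little RNA to be tested had 147 (2.99%) higher and 502 (10.2%) lower. Seen from the NTS, 147 (3.71%) of the higher genes and 502 (31.03%) of the lower genes had too little RNA to be tested. Among those with an RNA test, 27.0% of the higher and 24.5% of the lower genes were higher in kidney RNA, against 22.5% of all. The differences between these shares were not tested.

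Ranked by the RNA difference itself, the NTS difference was not monotonic. Its median was 0.02 in genes more than 2 log2 units lower in kidney RNA (on the log2(RPKM + 1) scale). It was 0.01 in the 11375 genes within 0.3 log2 units of no difference. In genes between 1 and 2 log2 units higher it was 0.37, and in the 225 genes more than 4 log2 units higher 0.21. After removal of the GC trend these medians were -0.16, -0.05, 0.17 and 0.08. Most of the 11375 genes had little RNA, with a median log2(RPKM + 1) of 0.09 in kidney and 0.13 in the mean of the other organs.

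The TS moved with the NTS. It was read in the same 8 libraries, and its reads are part of the TS+NTS totals. The TS difference also went with gene GC content (Spearman 0.55 across genes). Kidney was higher at 5178 genes (23.5%) and lower at 1335 (6.06%) on the TS. The median TS difference was 0.24 and became 0.07 with TMM factors, a shift of the scale of more than 0.1, under which 3345 genes were higher and 2492 lower. Of the genes higher on the NTS 72.0% were also higher on the TS, and of those lower on the NTS 54.8% were also lower on the TS. Among genes called on the NTS after removal of the GC trend, these shares were 72.0% of the higher and 30.5% of the lower. The TS calls here were those on the TS+NTS scale. The relation to expression was steeper on the TS, from -0.20 in the lowest decile of kidney RNA to 0.67 in the highest.

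The difference between the strands, tested in 1 fit over both, was called at 554 genes. In 514 (2.33%) the NTS difference of kidney was smaller than its TS difference, and in 40 (0.182%) it was larger. With TMM factors for each strand the numbers were 211 and 93, and without kidney replicate 2 they were 67 and 21. Among all reads on genes, 54.7% and 52.9% fell on the NTS in the kidney libraries. Liver had 56.1% and 55.7%, lung 54.3% and 54.6%, and both spleen libraries 53.5%. The kidney libraries enclosed those of lung and spleen, and the difference of -0.819 percentage points to the mean of the 6 others was within the spread (two-sided exact permutation p = 0.429). Without kidney replicate 2 it was 0.0679.

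XR-seq, which reads the short fragments that excision repair releases, gave another readout on the NTS in libraries of the same organs. The median difference in NTS repair reads between kidney and the mean of the other organs was 0.41 log2 units in genes with more NTS damage in kidney, 0.18 in genes with less and 0.15 over all genes (2 libraries per organ, no test). Across genes the Spearman coefficient between the damage and the repair difference was 0.11.

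By gene length, 192 of 222 genes above 500 kb (86.5%, against 7.35% of all genes) were called lower and none higher. After removal of the GC trend 96 of the 222 were called lower (43.2%, against 3.89% of all genes). Of 6719 genes between 10 and 30 kb 1693 (25.2%) were called higher and 117 lower. Genes with more reads are called at smaller differences: the median gene above 500 kb had 1277 NTS reads per library and the median gene between 10 and 30 kb had 44.0. By chromosome, the median difference was highest on chromosome 11 (0.37, 31.9% of 1610 genes higher) and lowest on the X (-0.29, 22.0% of 682 genes lower, 7 higher). After removal of the GC trend these medians were 0.10 and -0.14. The X held 2.43% and 2.68% of the NTS reads of genes in kidney and 3.07% to 3.47% in the other 6 libraries, without overlap, in mice that were all female.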

How the data were processed

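Damage-seq was measured in 8 libraries (2 each of kidney, liver, lung and spleen). The deposited values were unnormalized read counts for each strand of a gene (TS, NTS). The authors made them with cutadapt, BWA and Picard on mm10, keeping reads next to a GG and dropping those of low mapping quality. RNA-seq counts (STAR, featureCounts) and XR-seq counts were deposited alike. Tool versions are not given in the sources used here. Groups came from the labels, among them the corrected treatment labels of lung and spleen RNA. The batch correction of the study was not repeated, because the labels name no batch. One row without a gene was dropped per Damage-seq file.

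From these counts, genes with at least 20 NTS reads over the 8 libraries were tested by edgeR 4.0.16 in R 4.3.3 (glmQLFit and glmQLFTest, kidney minus the mean of the 3 organs, library size TS+NTS, no further factors, Benjamini-Hochberg threshold 0.05). SE is the size of the log2 difference divided by the square root of F. Reads were scaled to 1000000 TS+NTS reads (RPM). RNA was tested by glmTreat against 0.4 on the cisplatin-treated libraries, which held 15612743 to 162268216 counts. RPKM used exon lengths of GENCODE M21, which placed 25040 of 25058 genes, and expression was log2(RPKM + 1) averaged over 2 libraries. A total of 3687 tested genes had no kidney RNA read and were ordered by identifier at the bottom of the deciles. The GC trend was a loess curve (span 0.3) of each library's log2 RPM (offset 0.5) on gene GC content, used as an offset. XR-seq differences are of mean log2 RPM with the same offset. In simulated counts, 187 of 200 genes changed by 1 log2 unit were recovered (93.5%), with 12 false calls, for the kidney NTS comparison over 22030 genes. The changed genes were drawn from those with a mean of at least 30 NTS reads. A single spread served all genes, and no GC trend or other organ difference was built in. Recovery in shallower genes and false calls in the real data were therefore not measured.

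The members and gene lists were chosen with earlier results of these data known. Named genes were the 12 higher and 8 lower with the smallest p among called genes whose 2 kidney libraries lay beyond all 6 others (3263 and 1387 genes), the 5 higher and 5 lower with the largest difference at a mean of 30 NTS reads or more, every platinum gene, and up to 4 members of each other list by p. Scnn1b, Umod, Kap, Prkaca, Acadl, Fosl1, Mdm2, Ccng1, Mnat1 and Cd79b were added after their values were seen. Some genes that this rule names are not reported here. Ribosomal protein, Zfp, Hox, receptor and protocadherin genes were taken by symbol, the other lists by hand. Alternatives were TMM scaling, DESeq2 1.42.0 with its own scaling and test, other filters, each library left out, and removal of the GC or GG trend. Removal of the GC trend was combined with left-out libraries after the data were seen. Precision is set by read depth, and the errors given cover the spread between libraries.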

Additional observations from a re-analysis of the deposited data

How the results depend on the processing

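On the NTS, 3962 genes were higher and 1619 lower in kidney. The number higher was 1407 with DESeq2, 1371 against a log2 difference of 0.4, 2612 among the 16082 genes that overlap no other, 1338 with the GG trend removed and 1205 with the GC trend removed. The number lower was 553 among genes under 100 kb, 43 against a log2 difference of 0.4, 994 with the GG trend removed and 856 with the GC trend removed. Fewer genes were tested in the fits without overlapping and without long genes, and for the other settings the cause was not tested. On the TS+NTS scale, with 1 library left out, the counts ranged up to 4334 and 1658, and without kidney replicate 1 they were 1537 and 483. With the GC trend removed, a choice made after seeing the data, the counts higher and lower were 641 and 221 without kidney replicate 1, 559 and 869 without kidney replicate 2, 830 and 495 without liver replicate 1, 898 and 522 without liver replicate 2, 1420 and 885 without lung replicate 1, 1616 and 1028 without lung replicate 2, 973 and 589 without spleen replicate 1, and 887 and 567 without spleen replicate 2.

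TS calls fell from 6513 to 3086 with DESeq2 and 4015 with the GC trend removed, and ranged from 3877 (without kidney replicate 1) to 6945. They were 4134 without kidney replicate 2. Calls on the strand difference fell from 554 to 304 with TMM factors and ranged from 88 (without kidney replicate 2) to 790. They were 260 without liver replicate 1, and 341 without liver replicate 2 and without spleen replicate 2. RNA calls ranged from 4452 (without kidney replicate 2) to 7974, against 6866. The difference in NTS share ranged from -1.71 to 0.0679, turning sign without kidney replicate 2. The step over expression deciles was 0.46 with the GC trend removed and 0.57 to 0.86 with 1 library left out. The cause was not tested.

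With the replicate number as a block, 3899 genes were higher and 1543 lower, and with the GC trend removed as well 1307 and 926. Deviations of same-numbered libraries correlated between -0.155 and 0.180, so the numbers were not taken to pair the samples. Of 111 named genes 88 were called. Of these 40 lost the call with the GC trend removed, 30 without kidney replicate 1, 28 against a log2 difference of 0.4 and 13 with DESeq2. The sign turned for Synpo (-0.0015 with the GG trend removed, -0.05003 with the GC trend removed and without kidney replicate 1). With the GC trend removed it also turned for CT010467.1 (-0.0586, without kidney replicate 2), Ercc2 (-0.0157, without liver replicate 2), Cps1 (0.10), Foxj1 (-0.0588) and Arhgap15 (0.0148), the last 3 without kidney replicate 1. Depth limits short genes, and 2 libraries per organ limit every comparison.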
